A study of Mus musculus with 19 samples.

Results

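Perilipins are proteins that sit on the surface of lipid droplets, the cell's stores of neutral lipid. The genes described here are Plin4, Plin2 and Plin3, which are 3 of the 14443 genes in the deposited count table. They were chosen by symbol from the perilipin family, and the family was selected on the fitted log2 change of Plin4 after sleep deprivation, the highest of all genes in both genotypes. Hence the deprivation values of the 3 genes are a description and carry no test. RNA was sequenced from dissected locus coeruleus, the main noradrenergic nucleus of the brain, which is active in waking. CnB1 is the calcium-binding subunit of calcineurin, a phosphatase, and CnB1KO stands for its knockout. The groups were CnB1KO_SD6 (ABC-CnB1KO mice kept awake for 6 h, n = 5), CnB1KO_S6 (ABC-CnB1KO mice that slept normally, n = 5), WT_SD6 (ABC-Ctrl mice kept awake for 6 h, n = 5) and WT_S6 (ABC-Ctrl mice that slept normally, n = 4). The labels' protocol gives 1 treatment for all 19 libraries, with brains collected 4 weeks after injection of AAV-hSyn-Cre, a virus that expresses Cre recombinase from the neuronal synapsin promoter. The libraries were labelled as biological replicates. Age, sex, strain, batch, day and litter were not given in the sources used here.

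Plin2 and Plin3 are expressed in most tissues. Plin2 coats stored droplets and is degraded when it is not bound to one, and Plin3 is soluble in the cytosol and moves onto droplets as they form. Plin1 guards the droplets of fat cells, Plin5 links droplets to mitochondria in tissues that burn fat, and Plin4 coats small new droplets through a long repetitive helix and is known mainly from fat, heart and skeletal muscle. In brain, droplets are found mostly in glia and ependyma, and neurons hold few.

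Plin4 (chr17:56100591-56109803, minus strand, GRCm38), Plin5 (chr17:56111601-56117596) and Plin3 (chr17:56277476-56292873) are protein-coding genes on the same strand of chromosome 17, and 167672 bases separate Plin4 from Plin3. Plin2 lies at chr4:86648386-86670060 and Plin1 at chr7:79720218-79732903, both on the minus strand. The longest annotated Plin4 transcript has 9 exons and 5756 bases, of which 4209 are coding. Exons 5 and 6 carry a coding repeat with a period of 99 bases, and 39.3% of the transcript's bases lie in such repeats at 80% identity or more. Of the 5707 windows of 50 bases in the transcript, 995 (17.4%) occur more than once within it and 0 occur in another annotated gene. The repeat is shown because reads that fall in a recurring window cannot be placed at a single copy, while no window is shared with another gene. A run of 3 consecutive copies in exon 5 (chr17:56106106-56106402, GRCm38, minus strand) reads as follows, 5′ to 3′, with capitals where the copies are identical (87 of 99 bases).
Plin4 repeat copy 1: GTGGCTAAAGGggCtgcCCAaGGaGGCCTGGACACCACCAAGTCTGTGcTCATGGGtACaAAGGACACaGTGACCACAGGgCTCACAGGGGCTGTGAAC
Plin4 repeat copy 2: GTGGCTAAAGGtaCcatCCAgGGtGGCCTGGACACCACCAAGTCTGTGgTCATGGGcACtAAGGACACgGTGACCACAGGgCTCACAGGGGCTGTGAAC
Plin4 repeat copy 3: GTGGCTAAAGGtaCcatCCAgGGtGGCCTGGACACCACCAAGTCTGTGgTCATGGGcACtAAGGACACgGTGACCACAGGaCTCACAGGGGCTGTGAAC

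The 250 bases before the RefSeq starts (GRCm38.p6) are shown because Plin4 alone of the members was far higher in deprived tissue, and a reader may compare the starts. All are on the minus strand and are written in the direction of the gene: chr17:56109783-56110032 for Plin4, chr4:86670060-86670309 for Plin2 and chr17:56290512-56290761 for Plin3. The Plin3 window lies inside the annotated gene body given above (chr17:56277476-56292873), downstream of the annotated start. It is thus not the sequence before that start. Capitals mark matches to the motifs searched.
Plin4: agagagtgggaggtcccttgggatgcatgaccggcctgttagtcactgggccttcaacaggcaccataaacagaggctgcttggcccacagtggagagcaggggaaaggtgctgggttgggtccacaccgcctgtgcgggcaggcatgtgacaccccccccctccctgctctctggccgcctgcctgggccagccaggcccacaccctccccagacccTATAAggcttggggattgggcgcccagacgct
Plin2: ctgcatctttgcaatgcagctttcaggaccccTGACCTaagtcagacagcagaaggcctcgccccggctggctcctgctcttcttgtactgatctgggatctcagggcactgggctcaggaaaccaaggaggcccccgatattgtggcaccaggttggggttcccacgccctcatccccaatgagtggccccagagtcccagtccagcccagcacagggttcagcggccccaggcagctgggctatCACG
Plin3: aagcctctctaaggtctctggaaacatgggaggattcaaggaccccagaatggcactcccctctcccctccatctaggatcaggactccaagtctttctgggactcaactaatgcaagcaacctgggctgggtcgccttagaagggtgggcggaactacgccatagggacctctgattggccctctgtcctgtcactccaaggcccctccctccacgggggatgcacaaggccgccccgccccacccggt

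The motifs were searched on both strands: the glucocorticoid receptor hexamer AGAACA, the nuclear receptor hexamer AGGTCA, the PPAR direct repeat of that hexamer with any 1 base between the copies, the hypoxia response core ACGTG, the heat shock pair GAANNTTC, the E-box CACGTG, which also contains ACGTG, the AP-1 site TGANTCA and the TATA core TATAA. The Plin4 window held TATAA at positions -32 to -28 from the start, on the strand of the gene. TATAA is in 24.9% of the 32851 promoters of the RefSeq table and was added to the search after the Plin4 window had been seen. All shares of promoters given here count a match on either strand at any position, also past the start. They are not shares for a given strand and position. The Plin2 window held the hexamer AGGTCA on the other strand at -218 to -213 (16.3% of promoters), and an E-box (7.15%) from -4 that runs over the start and contains ACGTG on both strands (19.6%). The Plin3 window held none of these letters. None of the windows shown held AGAACA (19% of promoters), the PPAR direct repeat (0.0396%), GAANNTTC (7.86%) or TGANTCA (7.81%). The window of Plin5 at 1 of its 2 listed starts was searched too and is not shown. It also held TATAA on the strand of the gene, at -27 to -23. It held AGGTCA at -170 to -165 and the AP-1 match TGACTCA at -11 to -5. A match is a description of letters and not a bound site.

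Total counts per library ran from 5110285 to 6966490 in CnB1KO_SD6, 3887298 to 7128244 in CnB1KO_S6, 5606129 to 7903253 in WT_SD6 and 6260061 to 7002015 in WT_S6. Levels below are CPM, counts scaled to sequencing depth, adjusted by TMM, a scaling that makes most genes comparable between libraries. Ppp3r1, which encodes CnB1, averaged 133 ± 6.73 CPM in CnB1KO_SD6 and 129 ± 13.2 CPM in CnB1KO_S6 (SD, n = 5 each), against 152 ± 10.9 CPM in WT_SD6 (SD, n = 5) and 161 ± 4.08 CPM in WT_S6 (SD, n = 4). It fell by 0.26 on the log2 scale in CnB1KO averaged over sleep states (edgeR adjusted p = 0.00758). The noradrenergic markers Th, Dbh and Slc6a2 were present in every library, at 26.2 FPKM or more. Of 9 noradrenergic markers, 0 passed a deprivation comparison. Of all genes, 0.692% passed in CnB1KO, 1.14% in WT and 4.69% averaged, so a count of 0 from 9 is near those shares. FPKM are fragments scaled by transcript length and sequencing depth. Markers of cerebellar granule cells, which lie beside the nucleus, varied widely, with a summed level of 38.4 to 1119 CPM in CnB1KO_SD6, 74.5 to 972 CPM in CnB1KO_S6, 73.2 to 1697 CPM in WT_SD6 and 270.0 to 1344 CPM in WT_S6.

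Plin4 was 11.4-fold higher after deprivation in CnB1KO and 10.5-fold higher in WT. In the CnB1KO_SD6 libraries numbered 16 to 20 it stood at 53.5, 44.1, 80.6, 106.7 and 84.4 CPM, against 5.35, 8.49, 5.19, 7.05 and 5.61 CPM in the CnB1KO_S6 libraries numbered 11 to 15. In the WT_SD6 libraries numbered 6 to 10 it stood at 92.3, 23.5, 18.4, 88.6 and 127.8 CPM, against 6.46, 10.03, 4.72 and 5.55 CPM in the WT_S6 libraries numbered 1 to 4. Every deprived library was above every slept library of its genotype, and the closest values in WT were 18.4 CPM in WT_SD6 and 10.03 CPM in WT_S6. The counts behind these values were 308 to 601 in CnB1KO_SD6 and 19 to 53 in CnB1KO_S6. They were 121 to 1034 in WT_SD6 and 33 to 65 in WT_S6.

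Group means of Plin4 were 73.9 ± 25.2 CPM in CnB1KO_SD6 and 6.34 ± 1.41 CPM in CnB1KO_S6 (SD, n = 5 each), and 70.1 ± 47.4 CPM in WT_SD6 (SD, n = 5) against 6.69 ± 2.34 CPM in WT_S6 (SD, n = 4). The fitted log2 change was 3.52 (SE 0.49) in CnB1KO and 3.39 (SE 0.52) in WT. Both were the highest of the 14443 genes, and the next gene stood at 3.38 in CnB1KO and 2.04 in WT. The median over all genes was -0.01 in CnB1KO and 0.00 in WT. These values chose the family, so they support nothing further. Of all genes, 1.38% had deprived libraries that were all above the slept ones in CnB1KO and 3.11% did in WT, and 0.464% and 0.775% of genes passed the test as higher in CnB1KO and in WT. In tissue RNA of this kind, more cells that express Plin4 and more Plin4 RNA per cell cannot be told apart. Of 12 oligodendrocyte markers, 3 fell in the deprivation comparison averaged over the genotypes (edgeR's quasi-likelihood test with Benjamini-Hochberg adjustment at 0.05), where 2.13% of all genes fell and 4.69% passed in either direction. The summed oligodendrocyte level was 2122 to 2597 CPM in CnB1KO_SD6 against 2069 to 3196 CPM in CnB1KO_S6, and 1953 to 2198 CPM in WT_SD6 against 2106 to 2391 CPM in WT_S6. With the oligodendrocyte score, the mean log2 CPM of the markers, as a covariate the Plin4 change was 3.56 in CnB1KO and 3.58 in WT. The 4 counted choroid plexus and ependyma markers summed to 50.1 to 246 CPM in CnB1KO_SD6 against 71.2 to 98.5 CPM in CnB1KO_S6, and to 68.8 to 144 CPM in WT_SD6 against 38.5 to 119 CPM in WT_S6. None of them passed, and their part in the result was not tested. In the averaged comparison 1 of 11 astrocyte and 1 of 10 endothelial markers also rose, and 1 of 10 microglial markers fell. Within each genotype, 1 of 11 astrocyte markers rose. Oligodendrocyte markers fell too, 2 of 12 in WT and 1 of 12 in CnB1KO, and 1 of 10 microglial markers fell in WT. Of all genes, 0.692% passed in either direction in CnB1KO and 1.14% in WT. The part of astrocytes, endothelial cells and microglia in the result was not tested either.

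**Figure D1:**
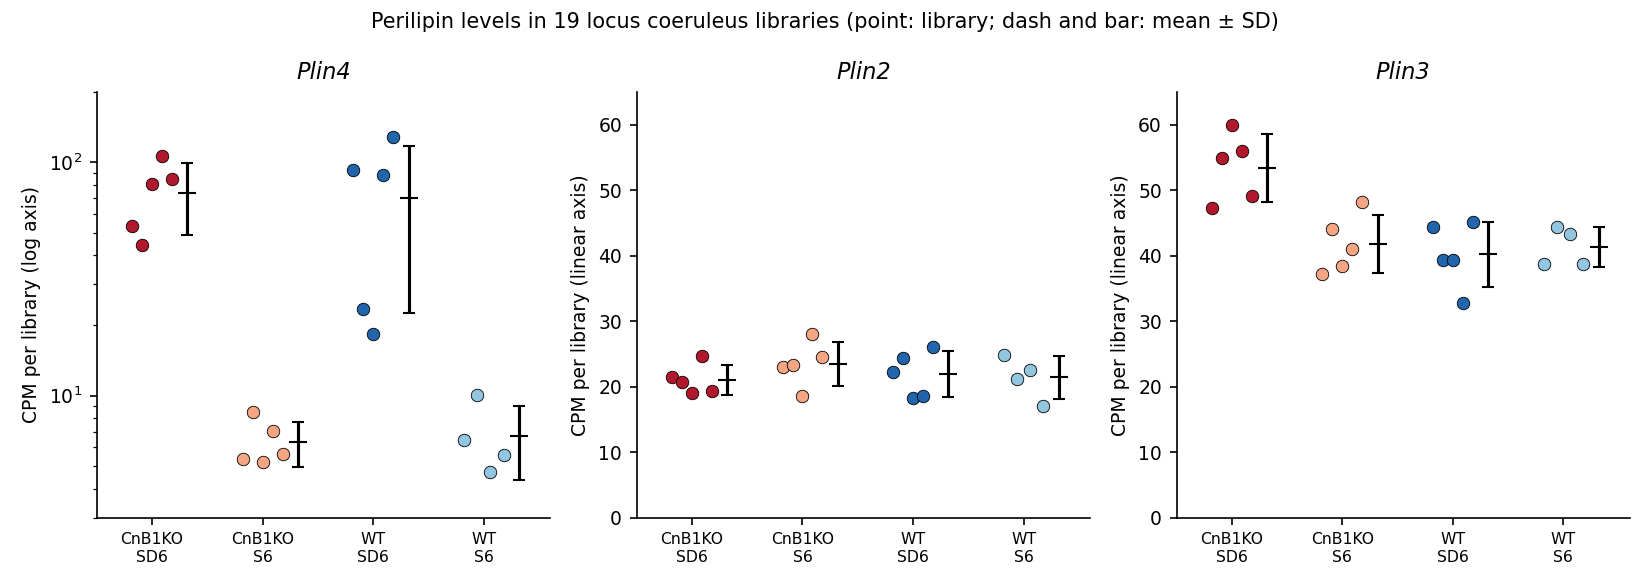
Level of each member in CPM in every library (points) with the group mean and SD (dash and bar), on a log axis for Plin4 and linear axes for Plin2 and Plin3. Plin4 separates the deprived from the slept libraries in both genotypes, Plin2 lies between 17.1 and 28.1 CPM throughout, and Plin3 is highest in CnB1KO_SD6.

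The spread of Plin4 between deprived libraries was wide, above all in WT. The highest library was 2.42 times the lowest in CnB1KO_SD6 and 6.93 times the lowest in WT_SD6, against 1.64 times in CnB1KO_S6 and 2.12 times in WT_S6. The SD of log2 CPM was 0.52 in CnB1KO_SD6 and 1.27 in WT_SD6. Among the genes of like level that made it rank 16 of 3097 in CnB1KO_SD6 and 9 of 3219 in WT_SD6, where the median SD was 0.10 and 0.11. WT_SD6 libraries 7 and 8 were low and libraries 6, 9 and 10 were high, with no library between 23.5 and 88.6 CPM.

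Marker sums differed between the same WT_SD6 libraries. WT_SD6 library 8, the lowest for Plin4, had the lowest noradrenergic sum of the series at 664 CPM and the highest cerebellar sum at 1697 CPM. WT_SD6 library 7 had 1304 and 1081 CPM of these sums, and WT_SD6 library 9, which was high for Plin4, had 1083 and 1216 CPM. WT_SD6 library 10, the highest for Plin4, had 1496 and 73.2 CPM. With the cerebellar score as a covariate the Plin4 change was 3.29 in CnB1KO and 3.21 in WT, and with the noradrenergic score it was 3.39 and 3.47. Leaving out any single library left it between 3.35 and 3.66 in CnB1KO and between 3.05 and 3.66 in WT.

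The genotype comparisons, which did not choose the family, showed no Plin4 difference past the test. After deprivation the log2 change of CnB1KO over WT was 0.07 (SE 0.38, 95% interval -0.74 to 0.87, edgeR adjusted p = 0.948), and after sleep it was -0.06 (SE 0.64, 95% interval -1.42 to 1.31, edgeR adjusted p = 0.985). The libraries of the genotypes overlapped in both. The difference between the 2 deprivation changes was 0.12 (SE 0.74, 95% interval -1.46 to 1.71). Both of those changes chose the family, so this difference is a description and carries no test. The intervals are wide, so these values do not show that the genotypes are alike. The values also moved with the covariate: with the endothelial score they were 0.67 after deprivation (edgeR adjusted p = 0.512) and 0.63 after sleep (edgeR adjusted p = 0.802), with the noradrenergic score -0.23 and -0.15, and with the cerebellar score -0.18 and -0.26. The background of these comparisons was low: 0.132% of all genes passed for genotype after deprivation and 0.0485% after sleep, and edgeR called 0 genes for the interaction, where 287 had an unadjusted p under 0.05 and DESeq2 called 1.

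Plin2, the droplet coat of most cells, had almost the same level in all groups. It averaged 21.1 ± 2.25 CPM in CnB1KO_SD6 and 23.5 ± 3.41 CPM in CnB1KO_S6 (SD, n = 5 each), and 21.9 ± 3.47 CPM in WT_SD6 (SD, n = 5) against 21.4 ± 3.27 CPM in WT_S6 (SD, n = 4). The single libraries ran from 19.1 to 24.7 CPM in CnB1KO_SD6, from 18.6 to 28.1 CPM in CnB1KO_S6, from 18.3 to 26.1 CPM in WT_SD6 and from 17.1 to 24.9 CPM in WT_S6. The groups overlapped almost fully. The fitted deprivation change was -0.17 (SE 0.12) in CnB1KO and 0.04 (SE 0.13) in WT. CnB1KO over WT was -0.07 after deprivation (95% interval -0.33 to 0.20, edgeR adjusted p = 0.815) and 0.14 after sleep (95% interval -0.13 to 0.42, edgeR adjusted p = 0.736). Of the 1839 windows of 50 bases in the Plin2 transcript, 90 also occur in the pseudogene Gm12551, so a small part of its counts could be split.

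Plin3, the cytosolic member that joins new droplets, was highest in the deprived knockout. It stood at 47.2, 54.9, 59.9, 55.9 and 49.2 CPM in CnB1KO_SD6, and at 37.3, 44.1, 38.5, 41.1 and 48.2 CPM in CnB1KO_S6. In WT it stood at 44.5, 39.4, 39.3, 32.7 and 45.1 CPM in WT_SD6, and at 38.8, 44.4, 43.4 and 38.7 CPM in WT_S6. In CnB1KO, 4 of 5 deprived libraries were above all slept ones, and in WT the groups overlapped. The fitted deprivation change was 0.35 (SE 0.09) in CnB1KO and -0.04 (SE 0.10) in WT.

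All 5 CnB1KO_SD6 libraries had more Plin3 than all 5 WT_SD6 libraries, which held for 1.11% of all genes. The log2 change of CnB1KO over WT after deprivation was 0.41 (SE 0.09, 95% interval 0.22 to 0.60), which did not pass (edgeR adjusted p = 0.0766 over all genes). After sleep it was 0.02 (SE 0.10, 95% interval -0.19 to 0.22, edgeR adjusted p = 0.955), and averaged over sleep states 0.21 (SE 0.07, edgeR adjusted p = 0.0717). The interaction was 0.39 (SE 0.13, edgeR adjusted p = 0.9999). The call after deprivation depended on the method: DESeq2 gave an adjusted p of 0.0175, and edgeR without CnB1KO_SD6 library 16 gave 0.0312.

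Markers of other cells moved with genotype in the same libraries. Averaged over sleep states, 6 of 10 endothelial, 3 of 12 oligodendrocyte, 3 of 7 pericyte and 2 of 10 microglial markers rose in CnB1KO (edgeR with Benjamini-Hochberg adjustment at 0.05), where 1.88% of all genes rose and 3.09% passed in either direction. The summed endothelial level was 535 to 692 CPM in CnB1KO_SD6 against 433 to 568 CPM in WT_SD6, and 572 to 701 CPM in CnB1KO_S6 against 451 to 524 CPM in WT_S6. The oligodendrocyte sum was 2122 to 2597 CPM in CnB1KO_SD6 against 1953 to 2198 CPM in WT_SD6, and 2069 to 3196 CPM in CnB1KO_S6 against 2106 to 2391 CPM in WT_S6. With the endothelial score as a covariate the Plin3 difference after deprivation was 0.27 (edgeR adjusted p = 0.317), and with the oligodendrocyte score 0.28 (edgeR adjusted p = 0.9998). Of the 3596 windows of 50 bases in the Plin3 transcript, 45 also occur in other genes.

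Per transcript length, deprivation set Plin4 beside the other perilipins. Mean Plin4 was 13.2 ± 4.36 FPKM in CnB1KO_SD6 and 1.07 ± 0.28 FPKM in CnB1KO_S6 (SD, n = 5 each), and 12.4 ± 8.76 FPKM in WT_SD6 (SD, n = 5) against 1.12 ± 0.39 FPKM in WT_S6 (SD, n = 4). Plin2 averaged 10.6 FPKM in CnB1KO_SD6, 11.5 in CnB1KO_S6, 11.1 in WT_SD6 and 10.5 in WT_S6. Plin3 averaged 12.5 FPKM in CnB1KO_SD6, 9.75 in CnB1KO_S6, 9.47 in WT_SD6 and 9.70 in WT_S6. In slept tissue Plin2 and Plin3 led and lay within their spread of each other, and Plin5 and Plin4 followed, also within their spread of each other. In deprived tissue Plin4 was above Plin2, and likewise above Plin3, in 3 of 5 CnB1KO_SD6 and 3 of 5 WT_SD6 libraries, and in none of the slept libraries.

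The share of Plin4 in the summed FPKM of the 5 perilipins had a median of 36.9% in CnB1KO_SD6 (25.4% to 41.2%) and 4.01% in CnB1KO_S6 (3.78% to 6.23%). It was 40.9% in WT_SD6 (13.7% to 48.0%) and 4.50% in WT_S6 (3.88% to 6.79%). The sum itself was 37.7 ± 5.37 FPKM in CnB1KO_SD6 and 23.6 ± 3.31 FPKM in CnB1KO_S6 (SD, n = 5 each), and 34.3 ± 10.5 FPKM in WT_SD6 (SD, n = 5) against 22.5 ± 2.47 FPKM in WT_S6 (SD, n = 4). The FPKM tables were deposited separately for each group, so levels set across them assume the same processing.

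**Figure D2:**
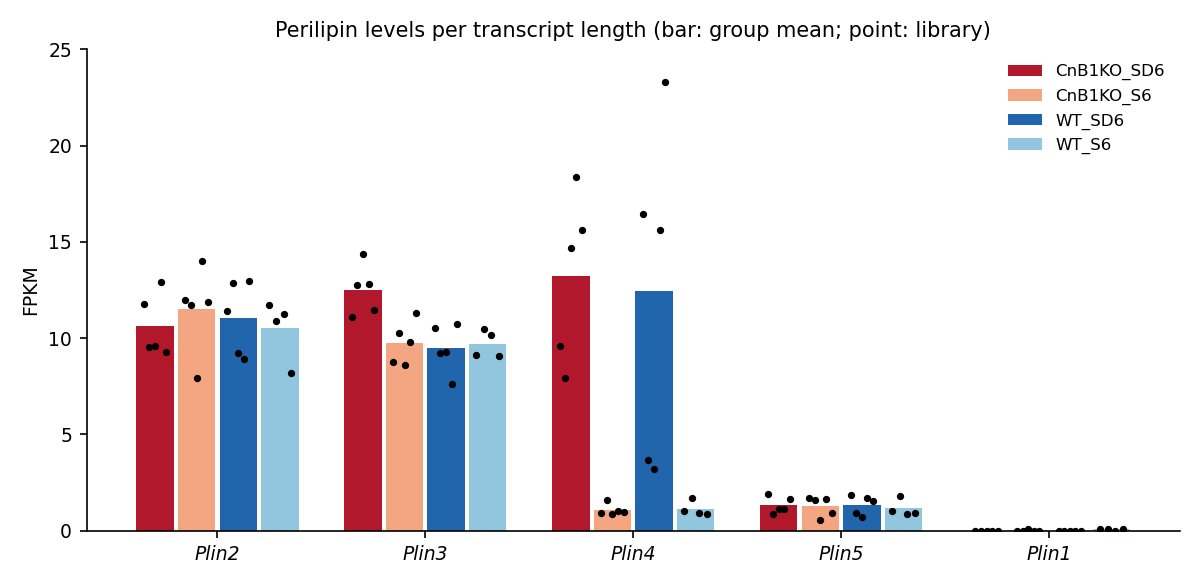
Mean FPKM of the 5 perilipins in each group (bars, from 0) with the single libraries (points). Plin2 lies between 10.5 and 11.5 FPKM in the 4 groups, Plin3 is at 12.5 FPKM in CnB1KO_SD6 and between 9.47 and 9.75 FPKM in the other groups, Plin4 is at 13.2 and 12.4 FPKM in the deprived groups against 1.07 and 1.12 FPKM in the slept groups, and Plin1 is near 0.

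Plin5, which tethers droplets to mitochondria, was weakly expressed, with 5 to 32 counts per library. It averaged 3.16 ± 0.92 CPM in CnB1KO_SD6 and 3.12 ± 1.21 CPM in CnB1KO_S6 (SD, n = 5 each), and 3.33 ± 1.28 CPM in WT_SD6 (SD, n = 5) against 2.75 ± 1.05 CPM in WT_S6 (SD, n = 4). Its deprivation change was -0.05 (95% interval -0.72 to 0.62, edgeR adjusted p = 0.9999) in CnB1KO and 0.28 (95% interval -0.43 to 0.98, edgeR adjusted p = 0.853) in WT. A difference of the size seen for Plin4 lies outside both intervals. Plin1, the perilipin of fat cells, has no row of counts and was listed at 0 FPKM in 5 of 5 CnB1KO_SD6, 4 of 5 CnB1KO_S6, 5 of 5 WT_SD6 and 1 of 4 WT_S6 libraries, and nowhere above 0.103 FPKM. Fat tissue markers were near 0: of 10 adipocyte markers, Cfd, Adig and Pck1 were listed at 0 in every library, and the other markers except Lipe reached at most 0.517 FPKM in any library. Lipe, a lipase that brain also expresses, ran from 9.59 to 14.8 FPKM. Of 8 skeletal muscle markers, Acta1, Actn3 and Mb were above 0 in all 19 libraries, at up to 2.37, 1.48 and 2.23 FPKM. Mylpf was above 0 in 17 libraries, at up to 3.96 FPKM. The other muscle markers were above 0 in at most 5 libraries, at up to 1.08 FPKM.

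Genes around Plin4 did not pass the deprivation test. Of the 6 other genes whose bodies lie within 50 kb, 5 have counts. Hdgfl2, which meets Plin4 tail to tail and overlaps it by 17 bases on the opposite strand, had a log2 change of 0.03 in CnB1KO and 0.02 in WT. Since the libraries carry no strand information, reads in that overlap cannot be assigned. Plin5, whose body ends 1797 bases before the Plin4 start, had -0.05 and 0.28. Ubxn6 had 0.07 and -0.02, the semaphorin gene Sema6b -0.01 and -0.13, and Chaf1a, a chromatin assembly factor, -0.25 and -0.39. The smallest edgeR adjusted p among them in either genotype was 0.304, for Chaf1a in WT. Chaf1a ran from 4.91 to 5.79 CPM in WT_SD6 against 6.48 to 8.16 CPM in WT_S6, without overlap. In CnB1KO its libraries overlapped. The share of all genes that were lower without overlap is not given here.

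**Figure D3:**
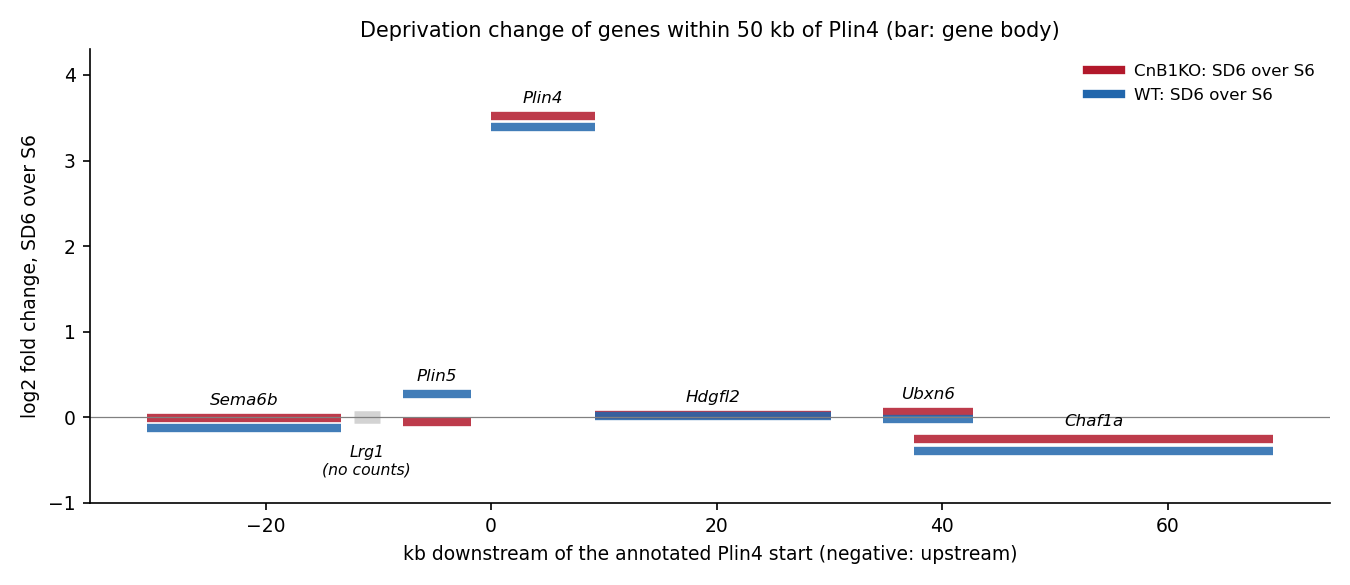
Fitted log2 change of SD6 over S6 (vertical axis) for Plin4 and the genes within 50 kb, each drawn as a bar over its annotated body by distance from the Plin4 start (horizontal axis, kb), for CnB1KO and WT. Plin4 stands at 3.52 and 3.39, the other genes lie between -0.39 and 0.28, and Lrg1 has no counts.

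The rest of the lipid droplet and fatty acid machinery held few genes that passed, a share near that of all genes. A gene that did not pass may still have changed, since the groups held 4 or 5 libraries. Of 103 measured genes in 7 lists (119 symbols), 1 rose and 0 fell after deprivation in CnB1KO and likewise in WT, which is 0.971% of the lists against 0.692% of all genes in CnB1KO and 1.14% in WT. Averaged over genotypes 1 rose and 2 fell, 2.91% against 4.69% of all genes. The median log2 change of the 103 genes was -0.01 in CnB1KO and 0.00 in WT, the same as over all genes to 2 decimals. By list, the counts of genes that passed in the averaged comparison were 0 of 15 lipid droplet proteins, 1 of 11 lipolysis and lipophagy genes and 1 of 17 genes of acyl-CoA, triglyceride and sterol ester synthesis. They were 1 of 13 genes of fatty acid and lipoprotein uptake, 0 of 23 of fatty acid oxidation, 0 of 13 of fatty acid synthesis and 0 of 11 PPAR factors and partners.

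The gene that rose was Pnpla2, which encodes adipose triglyceride lipase, the enzyme that takes the first fatty acid off stored triglyceride. It stood at 57.2, 57.4, 67.6, 60.6 and 54.6 CPM in CnB1KO_SD6, against 45.7, 42.6, 43.9, 46.2 and 46.6 CPM in CnB1KO_S6. In WT it stood at 59.7, 47.8, 47.2, 64.4 and 64.7 CPM in WT_SD6, against 39.2, 43.7, 44.9 and 45.2 CPM in WT_S6. The groups did not overlap in either genotype, and the lowest WT_SD6 libraries were 7 and 8, as for Plin4. The log2 change was 0.40 in CnB1KO (SE 0.09, edgeR adjusted p = 0.0318), 0.39 in WT (SE 0.09, edgeR adjusted p = 0.0413) and 0.40 averaged (SE 0.06, edgeR adjusted p = 0.000872). The averaged call held in each of the 30 alternatives run, with adjusted p up to 0.0175. The call within WT ended in 13 of 19 fits that left out 1 library (adjusted p 0.0121 to 0.151). It held without WT_SD6 library 7 or 8, CnB1KO_S6 library 13, or CnB1KO_SD6 library 16, 18 or 20. The call within CnB1KO ended in 8 of 19, without any single CnB1KO_S6 library or CnB1KO_SD6 library 17, 18 or 19 (adjusted p over all 19 fits 0.0139 to 0.112).

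The genes that fell in the averaged comparison were Dgat1, which makes triglyceride from diacylglycerol, and Fabp5, a fatty acid carrier of the cytosol. Dgat1 averaged 35.6 ± 2.46 CPM in CnB1KO_SD6 and 39.9 ± 1.75 CPM in CnB1KO_S6 (SD, n = 5 each), and 37.9 ± 3.95 CPM in WT_SD6 (SD, n = 5) against 42.9 ± 1.72 CPM in WT_S6 (SD, n = 4). Its averaged log2 change was -0.17 (edgeR adjusted p = 0.0468), and it ended in 15 of 19 fits without 1 library. Fabp5 averaged 42.0 ± 3.06 CPM in CnB1KO_SD6 and 47.4 ± 5.27 CPM in CnB1KO_S6 (SD, n = 5 each), and 38.0 ± 3.92 CPM in WT_SD6 (SD, n = 5) against 45.2 ± 3.29 CPM in WT_S6 (SD, n = 4). Its averaged log2 change was -0.21 (edgeR adjusted p = 0.0499), and it ended in 14 of 19 such fits. In both genes the libraries of the sleep states overlapped.

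Other named genes of the lists did not pass. Pdk4, a kinase that turns off pyruvate entry to mitochondria, had an averaged change of 0.42 (edgeR adjusted p = 0.0871). Its change was 0.56 in WT (edgeR adjusted p = 0.226) and 0.27 in CnB1KO (edgeR adjusted p = 0.733). In WT all its deprived libraries were above the slept ones, as for 3.11% of all genes, and in CnB1KO the libraries overlapped. Srebf1, a transcription factor of fatty acid synthesis, had -0.15 (edgeR adjusted p = 0.0884) and Scd1, a fatty acid desaturase, -0.11 (edgeR adjusted p = 0.233). Pcyt1a, which makes the phosphatidylcholine precursor of droplet surfaces, had 0.10 (edgeR adjusted p = 0.161), and Spg20, a droplet-associated protein, -0.12 (edgeR adjusted p = 0.130). Med1, a mediator subunit, had 0.10 (edgeR adjusted p = 0.267) and Ppard, a PPAR receptor, 0.12 (edgeR adjusted p = 0.313).

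Partners of Pnpla2 and PPAR targets were looked up after the values had been seen. Abhd5, the co-activator of this lipase, had an averaged change of -0.01 (edgeR adjusted p = 0.971), and its inhibitor G0s2 0.03 (edgeR adjusted p = 0.935). Hilpda, another inhibitor, had 0.24 (edgeR adjusted p = 0.335). Angptl4, a secreted inhibitor of lipoprotein lipase, had 0.41 (edgeR adjusted p = 0.218), Cpt1a, which admits fatty acids to mitochondria, -0.04 (edgeR adjusted p = 0.864) and Ppara -0.03 (edgeR adjusted p = 0.967). By genotype, the change of Angptl4 was 0.58 in CnB1KO (edgeR adjusted p = 0.386) and 0.24 in WT (edgeR adjusted p = 0.828). For genotype averaged over sleep states, 2 of the 103 genes rose and 0 fell, 1.94% against 3.09% of all genes. They were Spg20 (0.19, edgeR adjusted p = 0.0225) and Ppargc1a, a co-activator of mitochondrial genes (0.17, edgeR adjusted p = 0.0176). No list gene passed for genotype after deprivation or after sleep by edgeR.

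**Figure D4:**
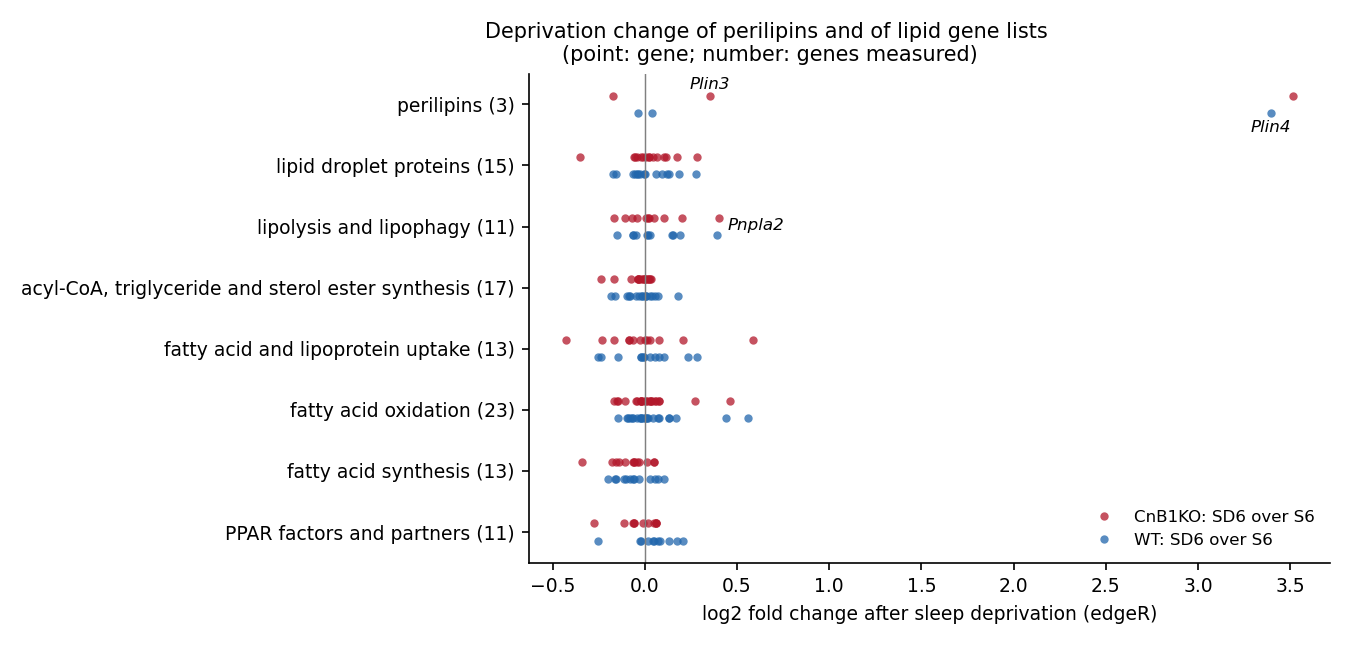
Fitted log2 change of SD6 over S6 (horizontal axis) for the 3 perilipins and for the measured genes of 7 lipid lists (rows, number of genes in brackets), in CnB1KO and in WT. Plin4 stands alone at 3.52 and 3.39, and Pnpla2 at 0.40 and 0.39 is the gene of the lists that passed within each genotype.

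The genes whose levels ran most closely with Plin4 over the 19 libraries were Gpt2 (Pearson r = 0.97), Map3k6 (0.96), Sult1a1 (0.96), Zbtb16 (0.94), Sgk1 (0.94), Mfsd2a (0.94), Fam83d (0.93) and Atp10a (0.92). Pnpla2 was 12th with 0.92. The deprived libraries were all above the slept ones for these 8 genes in both genotypes, except Zbtb16 in WT, so such an r largely restates the deprivation difference. Because the genes were picked by this r, the choice itself favours small deprivation p values. Their changes and adjusted p values are therefore a description and give no separate support. Gpt2, a mitochondrial alanine transaminase, averaged 109 ± 5.44 CPM in CnB1KO_SD6 and 82.8 ± 5.30 CPM in CnB1KO_S6 (SD, n = 5 each), and 112 ± 9.89 CPM in WT_SD6 (SD, n = 5) against 82.4 ± 2.30 CPM in WT_S6 (SD, n = 4). It rose by 0.40 in CnB1KO (edgeR adjusted p = 0.00152) and 0.45 in WT (edgeR adjusted p = 0.000885). Map3k6, a stress-activated kinase, rose by 1.31 in both (edgeR adjusted p = 0.00544 in CnB1KO and 0.00946 in WT). Mfsd2a, the transporter that carries lysophosphatidylcholine lipids into brain, rose by 0.76 in CnB1KO (edgeR adjusted p = 0.0139) and 0.80 in WT (edgeR adjusted p = 0.0130). Fam83d rose by 2.14 in CnB1KO (edgeR adjusted p = 0.000748) and 1.37 in WT (edgeR adjusted p = 0.0197), and Sult1a1, a sulfotransferase, by 1.31 (edgeR adjusted p = 0.00227) and 1.08 (edgeR adjusted p = 0.0128). Sgk1, a kinase induced by glucocorticoids, rose by 1.06 (edgeR adjusted p = 0.000748) and 0.98 (edgeR adjusted p = 0.00176), and Atp10a by 0.69 (edgeR adjusted p = 0.00326) and 0.61 (edgeR adjusted p = 0.0132).

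With the group means removed, the deviations of the 19 libraries from their own groups show which genes shared the spread of Plin4. The closest were Cmtm3 (r = 0.95), Cklf (0.89), Birc5 (0.89), Zbtb16 (0.87), Fkbp5 (0.86), Gpt2 (0.86), Tekt4 (0.85) and Micos13 (0.84). Over all 14443 genes these r had an SD of 0.38. Among the other genes without a provisional symbol, 18 were above 0.8 and 24 below -0.8. Without the 2 libraries farthest from the median, WT_SD6 libraries 8 and 10, r was 0.91 for Cmtm3, 0.77 for Zbtb16, 0.72 for Fkbp5, 0.79 for Gpt2 and 0.90 for Micos13. In levels over the 10 deprived libraries alone, r ran from 0.81 for Micos13 to 0.94 for Tekt4. Over the 9 slept libraries it was 0.89 for Cmtm3 and 0.84 for Cklf. There it was lower for Tekt4 (0.60), Gpt2 (0.56), Zbtb16 (0.52), Micos13 (0.46), Fkbp5 (0.35) and Birc5 (0.21). For these genes the shared spread was thus mainly that of deprived libraries. The points share library, dissection and depth, and no p is given. Because the genes were picked by the r of deviations, their shared pattern by library is a description and gives no separate support.

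Fkbp5, a co-chaperone of steroid receptors, shows the pattern by library. It stood at 56.4, 65.3, 78.6, 86.8 and 73.5 CPM in CnB1KO_SD6 libraries 16 to 20, and at 72.7, 46.9, 30.2, 65.8 and 101.8 CPM in WT_SD6 libraries 6 to 10. WT_SD6 library 8 was the lowest and library 10 the highest for Plin4, Fkbp5 and the transcription factor Zbtb16 alike. Fkbp5 and Zbtb16 were picked for such likeness to Plin4. Zbtb16 stood at 39.4, 39.1, 62.2, 69.8 and 59.9 CPM in CnB1KO_SD6 and at 50.1, 38.4, 30.3, 55.3 and 73.9 CPM in WT_SD6. Its deprivation change was 1.07 in CnB1KO (edgeR adjusted p = 0.0155) and 0.77 in WT (edgeR adjusted p = 0.105). Fkbp5 had 0.82 in CnB1KO (edgeR adjusted p = 0.124) and 0.62 in WT (edgeR adjusted p = 0.278), and averaged over genotypes it rose by 0.72 (edgeR adjusted p = 0.0157). The averaged deprivation change was 0.39 for Cmtm3 (edgeR adjusted p = 0.0390) and 1.51 for Tekt4, a gene of cilia (edgeR adjusted p = 0.00504). Cklf, Birc5 and Micos13 were also close to Plin4 by deviations over the 19 libraries. Their averaged changes were 0.07 (edgeR adjusted p = 0.862), 0.24 (edgeR adjusted p = 0.586) and 0.06 (edgeR adjusted p = 0.599). At the other end, and named after its values were seen, the activity-induced gene Egr1 had r = -0.91 with Plin4. In levels its r was -0.93 over the 10 deprived and -0.42 over the 9 slept libraries.

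**Figure D5:**
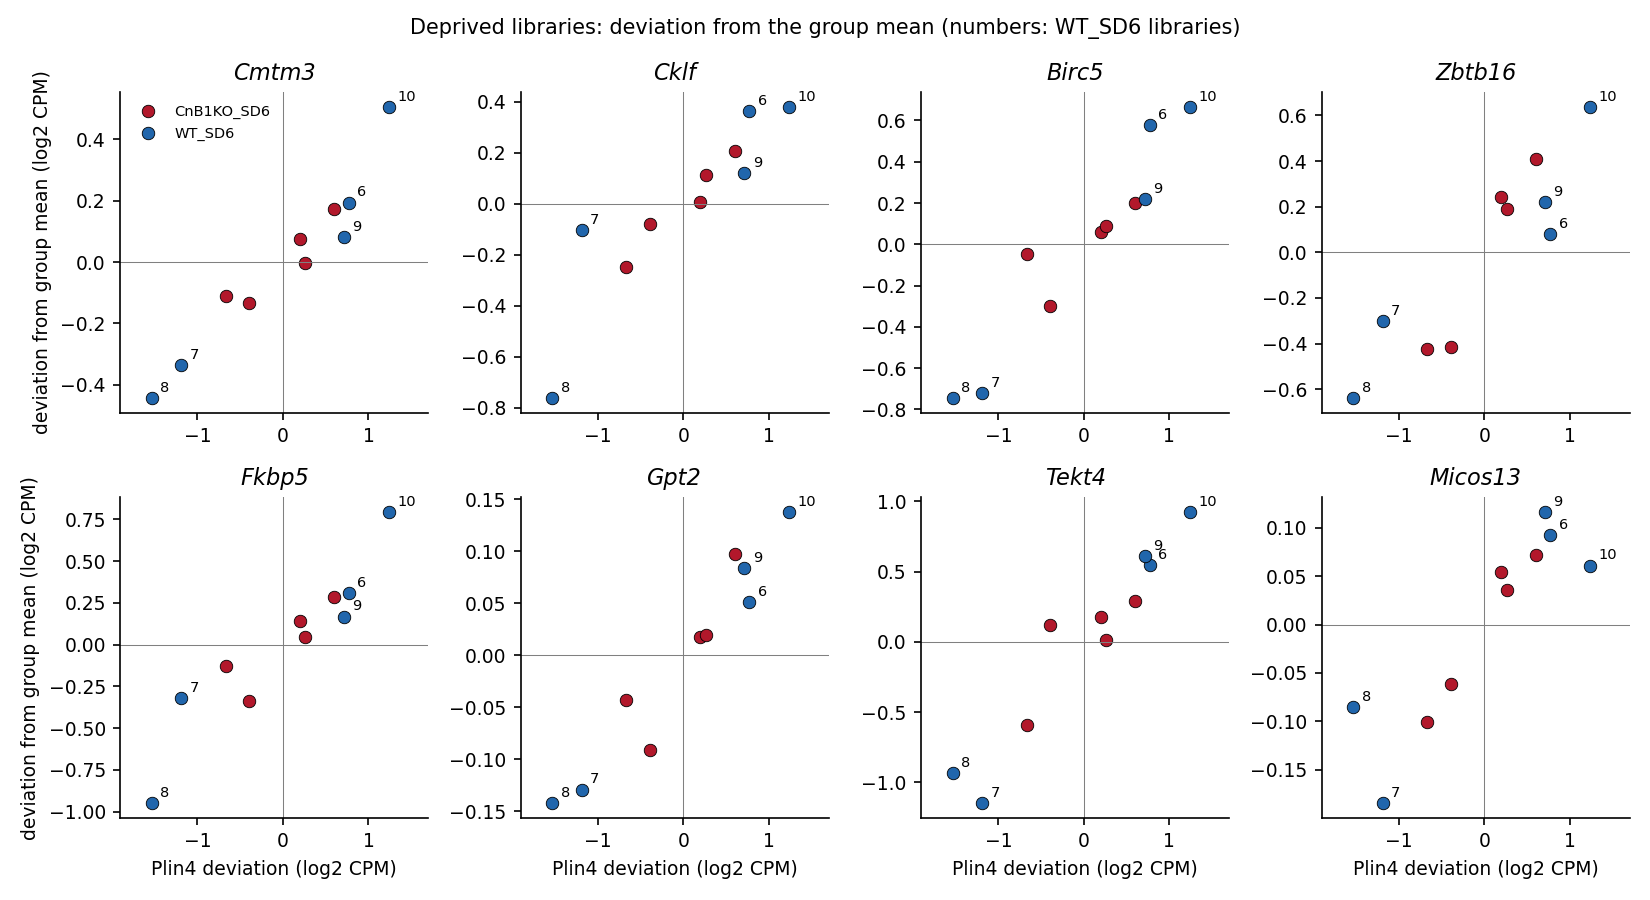
Deviation from the group mean of log2 CPM for the 8 genes closest to Plin4 (vertical axes) against that of Plin4 (horizontal axes) in the 10 deprived libraries, with WT_SD6 libraries numbered. WT_SD6 libraries 7 and 8 lie below their group mean and libraries 6, 9 and 10 above it in every panel. The genes were picked for this likeness, so the shared pattern is a description.

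The other members followed this spread loosely. The deviations of Plin4 had r = 0.26 with those of Plin2 and 0.23 with those of Plin3, and Plin2 and Plin3 had 0.40 with each other (n = 19). The r of Plin4 with Pnpla2 was 0.72. The genes closest to Plin2 were Stat6 (0.86), Zfp40 (0.82), E2f3 (0.82) and Skap1 (0.80), and those closest to Plin3 were Tmprss5 (0.94), Art3 (0.88), Fhdc1 (0.88) and Flt4 (0.87). Among the marker scores, the deviations of Plin4 had r = -0.57 with pericyte and smooth muscle, -0.56 with cerebellar granule cells and 0.54 with noradrenergic neurons. They had -0.53 with meningeal fibroblasts, 0.46 with skeletal muscle, a score of 1 counted gene, and -0.39 with endothelial cells. Those of Plin3 had their highest r, 0.56, with the endothelial score, in which Flt4 has no part.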

How the data were processed

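Poly(A) RNA of locus coeruleus tissue was sequenced in 19 libraries without strand information. The authors deposited raw counts per gene in 1 table (14443 symbols, each with at least 381 counts in all) and FPKM per gene in 4 tables, 1 per group, as the file headers and values show. Per the submitters' processing notes, the build was GRCm38 and the tools were StringTie 2.2.1, HTSeq 2.0.4, SAMtools 1.6, Picard 2.18.29, Trim Galore 0.6.10 and FastQC 0.12.1, with no roles given. The sources used here name no aligner or annotation release. Another 19 columns of TPM were not used.

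Columns name the group and a running number that is not the labels' replicate number, so libraries are known by group only. Total counts per library were 3887298 to 7903253. Counts were TMM-scaled and tested with edgeR 4.0.16 (R 4.3.3) by the 2-sided quasi-likelihood test in 1 fit of the 4 groups, with 15 residual degrees of freedom and Benjamini-Hochberg adjustment over all genes at 0.05. The filter filterByExpr kept all 14443 genes. The script was tested on simulated data. Intervals are 95% intervals of log2 changes. Correlations used log2 CPM with a prior count of 2.

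The members and lists were chosen with earlier results of these data known. Named genes were the members, Plin1, Plin5, genes within 50 kb of Plin4, up to 4 passing genes per list (or the 2 with the smallest averaged p) and the 8 genes most like Plin4 by levels and by deviations (4 for Plin2 and Plin3), with a mean log2 CPM of at least 1 and no provisional symbol. Alternatives were DESeq2 1.42.0, voom and limma 3.58.1 on log2(FPKM + 0.1) and log2(FPKM + 1) of genes with a mean FPKM of at least 0.1, upper-quartile scaling, no filter, covariates and leaving out each library. Gene positions came from GENCODE M21 on GRCm38, in which 97.6% of symbols matched 1 gene, and promoter sequences from RefSeq on GRCm38.p6. Of the genes that the rule names, 1 is not reported here. Protein sequences were not analysed here.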

Additional observations from a re-analysis of the deposited data

Results flagged for a closer look

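In the 16 sets of CPM values tested for a library far from the others (4 perilipins in 4 groups), 1 stood out, and chance gives about 1 in 20. Plin5 in WT_S6 was 4.32 CPM in library 2, against 2.15 to 2.36 CPM in the other libraries, a gap of 0.9 of the whole range. The counts behind these values were 14 to 28.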

How the results depend on the processing

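No paired analysis was possible because the columns carry no replicate numbers of the labels. The filter on low counts removed no gene, so the fit without it was identical. No result that passed its test changed sign. Values near 0 that passed no test did: over all alternatives the Plin4 difference of CnB1KO over WT ran from -0.23 to 0.67 after deprivation, from -0.26 to 0.63 after sleep and from -0.22 to 0.65 averaged (lowest adjusted p = 0.512 by edgeR), and its interaction from -0.14 to 0.47. That of Plin2 ran from -0.14 to 0.04 after deprivation and from -0.01 to 0.11 averaged, and that of Plin3 after sleep from -0.15 to 0.06. The deprivation change in WT ran from -0.07 to 0.12 for Plin2 and from -0.08 to 0.09 for Plin3. The cause was not tested. With 1 as the FPKM pseudocount the Plin4 deprivation change was 2.73 in CnB1KO, 2.35 in WT and 2.54 averaged. That pseudocount is close to the slept level of Plin4 and so shrinks the change. In all other alternatives it stayed within the SD between libraries, and leaving out 1 library gave 3.28 to 3.59 for the average. The Plin3 difference of CnB1KO over WT after deprivation passed at 0.40 with DESeq2 and at 0.46 with the library total as covariate (adjusted p = 0.0357 by edgeR). Without 1 library it was 0.35 to 0.45. Averaged over sleep states it passed at 0.26 with the library total (adjusted p = 0.0384 by edgeR) and was 0.18 to 0.24 without 1 library, passing without WT_SD6 library 10 or CnB1KO_SD6 library 16. The cause was not tested.

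Of the lipid lists, the number of genes that passed for deprivation in CnB1KO was 0 with either FPKM pseudocount and with the oligodendrocyte covariate, and 0 to 1 without 1 library. In WT it was 0 with voom, upper-quartile scaling, both FPKM fits, the oligodendrocyte covariate and the compared libraries alone, 2 with the cerebellar covariate, and 0 to 1 without 1 library. For the average it was 1 with both FPKM fits, 6 with the cerebellar covariate, and 1 to 4 without 1 library. For genotype after deprivation it was 1 with DESeq2, and 0 to 1 without 1 library. For genotype averaged over sleep states it was 0 with both FPKM fits and with the oligodendrocyte or endothelial covariate, 4 with the noradrenergic covariate, and 0 to 7 without 1 library. The 7 came without CnB1KO_SD6 library 16, a 4 each without WT_SD6 library 8 or 10, and the 0 without WT_S6 library 4. Over all genes, the calls for deprivation in CnB1KO numbered 100, and across the alternatives other than leaving out a library they ran from 61 (log2(FPKM + 0.1)) to 163 (noradrenergic covariate). In WT the 165 calls ran from 35 (compared libraries alone) to 406 (cerebellar covariate), and the 678 averaged calls from 346 (log2(FPKM + 0.1)) to 1171 (cerebellar covariate). For genotype, the 19 calls after deprivation ran from 4 (compared libraries alone or the oligodendrocyte covariate) to 95 (DESeq2), the 7 after sleep from 3 (compared libraries alone or the endothelial covariate) to 19 (library total), and the 447 averaged calls from 10 (oligodendrocyte or endothelial covariate) to 682 (DESeq2). The cerebellar, noradrenergic and endothelial covariates were chosen after seeing the data. At 5 to 32 counts per library, modest changes of Plin5 were not detectable.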
